A study of Mus musculus with 6 samples.

Results

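Resting B cells of the mouse spleen were compared with pro-B cells of the bone marrow for contacts across the immunoglobulin heavy chain (Igh) locus on chromosome 12. The comparison takes the 2 libraries titled as resting B cells and the 2 titled as Rag2-deficient pro-B cells, 4 of the 6 libraries of the series. The remaining 2, from embryonic fibroblasts (MEF), are not compared here, but they entered the filter on low counts, the scaling and the shared estimate of the spread. Contacts were counted by chromosome conformation capture carbon copy (5C). In this assay DNA ends that lie close together in the nucleus are ligated, and a forward and a reverse primer that meet at a junction are joined and sequenced. The 112 forward and 113 reverse primers at Igh HindIII fragments allow 12656 primer pairs, and primers in a gene desert on chromosome 5 allow 600 control pairs. Both pairs of libraries are biological replicates per the series description.

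The pro-B cells carried no functional Rag2 and had been expanded in interleukin 7 for 4 days. The resting B cells had been taken straight from the spleen as the CD43-negative fraction, by magnetic beads. The labels give no strain, age or Rag2 genotype for the splenic cells. Stage, Rag2 status, tissue and culture go together in these groups and cannot be told apart.

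The Igh locus encodes the heavy chain of antibodies. In a progenitor, the RAG enzymes (of which Rag2 is an essential part) first join a D segment to a J segment and then a V gene to the DJ join. The DNA between the joined segments is deleted on that allele, so a mature B cell carries rearranged alleles while a Rag2-deficient pro-B cell keeps the germline array. The known control elements along the locus include the 3′ regulatory region (3′RR) behind the constant genes, the intronic enhancer between the J segments and Ighm, and the CTCF-bound control region IGCR1 between the V genes and the D segments.

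Along the chromosome the RefSeq annotation of GRCm38.p6 orders the genes as 8 constant genes from Igha to Ighm, then the J segments from Ighj4 to Ighj1, the D segments, and the V genes from Ighv5-1 to Ighv1-86. The primer positions are on mm9, for which no annotation was used, so fragments are named by their primers and placed by approximate textbook borders. The 225 fragments were divided into a 3′ flank (16 fragments), the 3′RR (8), the constant region (25), a D-J region with the intronic enhancer (13), the V-D interval (5), proximal V (19), middle V (51), near distal V (43) and far distal V genes (28), and a 5′ flank (17). As drawn, the D-J region also holds the fragments from FOR_76 to FOR_80, on the Ighm side of the enhancer. Its values therefore do not describe the D and J segments alone. Together the regions from the 3′ flank up to D-J are called the constant side.

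The 4 libraries held 20580457 to 22300921 valid pairs, of which 92.1% to 93.4% joined 2 Igh fragments. A pair with 0 reads in a library could still hold up to 3 of that library's reads, and with no molecular identifiers this covers counting error only. The pro-B replicates differed more than the resting B replicates. Their median absolute log2 ratio over all Igh pairs was 1.48, against 0.50 between the resting B libraries, and 1641 Igh pairs had 0 reads in pro-B replicate 2 against 448 in pro-B replicate 1. Reads between the 2 loci made up 0.554% of pro-B replicate 1, 2.74% of pro-B replicate 2, and 3.01% and 3.41% of the resting B libraries. The main group medians are therefore also given over each pro-B library.

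By the median over primer pairs, resting B cells had fewer contacts among V genes and more within the constant side. Of 11940 tested Igh pairs, 327 were higher in resting B cells (2.74%) and 616 lower (5.16%), by edgeR's quasi-likelihood test with Benjamini-Hochberg adjustment and a threshold of 0.05. Of 220 tested desert pairs, 18 were higher (8.18%) and 13 lower (5.91%), a larger share than in the Igh locus. Both resting B libraries lay above both pro-B libraries in 33.0% of the Igh pairs and below both in 29.0%, against 43.6% and 30.5% of the desert pairs. Within the constant side 134 of 958 tested pairs were higher and 24 lower, with a median log2 fold of 1.28. Among proximal and middle V fragments 0 of 1149 were higher and 154 lower (median -1.16), and among distal V fragments 2 of 1208 were higher and 163 lower (median -0.97). The median over all Igh pairs was 0.01 and that over desert pairs 0.37.

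The split of calls moved with the scaling. With total Igh reads as library size 404 pairs were higher and 400 lower, and with desert reads 456 and 349. The median over all Igh pairs was then 0.28 and 0.29. Against these shifted medians the proximal and middle V pairs lay at -0.87 and -0.85, the distal V pairs at -0.66 and -0.65, and the constant side at 1.54 and 1.53, so each of these groups kept its sign. Single calls were fragile. With only the 4 compared libraries in the fit, or without either MEF library or either resting B library, edgeR called 0 pairs in either direction; at an unadjusted p under 0.05 the 4-library fit held 1241 higher and 1521 lower. DESeq2 on all 6 libraries called 1303 higher and 1601 lower, which held all 327 and all 616.

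Against the pro-B libraries taken singly, the median log2 ratio within the constant side was 1.40 over pro-B replicate 1 and 1.27 over pro-B replicate 2. For proximal and middle V pairs these medians were -1.25 and -0.77, and for distal V pairs -1.12 and -0.59. The 2 pro-B libraries therefore gave these groups the same direction. Over all Igh pairs, the ratio had the same sign over both pro-B libraries in 8632 of 11940. Both ratios share the resting B mean, so some agreement is built in. Fits with either pro-B library left out had no spread of pro-B cells. The lone library was assumed to vary like the other groups, so the calls of these fits do not measure agreement of the pro-B replicates.

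**Figure D1:**
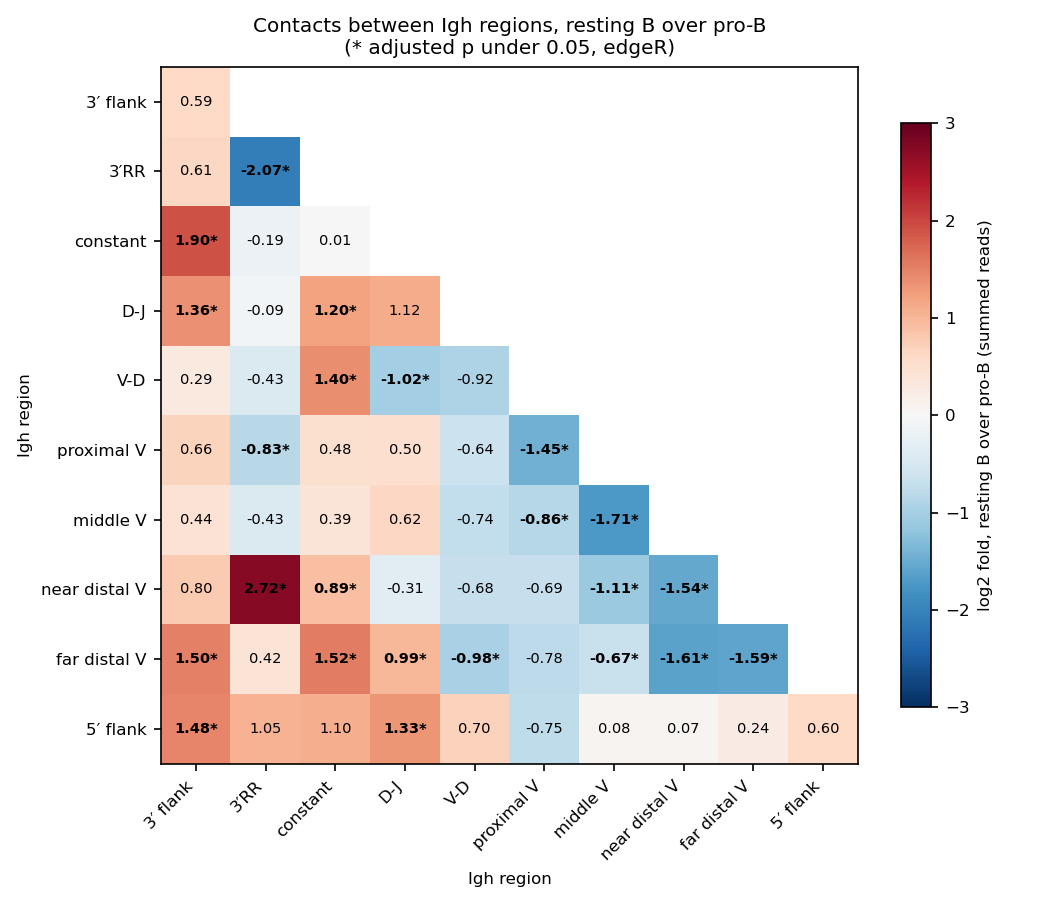
Log2 fold of summed reads, resting B over pro-B cells, for each of the 55 pairs of Igh regions (both axes list the 10 regions in chromosome order; * marks an adjusted p under 0.05, edgeR, n = 2 libraries per group). Pairs of V regions show folds of -0.67 to -1.71 where marked, and the marked pairs among the 3′ flank, the constant region and D-J show 1.20 to 1.90.

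Sums of reads over region pairs were tested next, since they are less sparse than single pairs. They are given as scaled reads, counts per primer or region pair divided by the library's effective size after trimmed-mean scaling and expressed as CPM. Of 55 region pairs, 11 were higher (20%) and 12 lower (21.8%). The groups did not overlap, with resting B cells higher, in 50.9% of the region pairs and, with resting B cells lower, in 36.4%. The 12 lower ones held 8 of the 10 pairs that join 2 V regions, and the others were the 3′RR with itself and with the proximal V genes, and the V-D interval with the D-J region and with the far distal V genes.

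Proximal V genes lie nearest the D segments. Their contacts with each other had 71606 and 37502 scaled reads in the pro-B libraries against 20004 and 19855 in the resting B libraries, a log2 fold of -1.45 ± 0.42 (SE, n = 2 per group; edgeR, adjusted p = 0.0275). Both resting B libraries lay below both pro-B libraries, and the pro-B libraries differed from each other by more than the resting B ones. The middle V genes, with 187345 and 113666 against 46512 and 45404 scaled reads, gave -1.71 ± 0.47 (adjusted p = 0.0271, edgeR). Much of this fold lay in near pairs: it was -0.90 over pairs more than 50 kb apart (adjusted p = 0.0241), and -0.69 after removal of each library's trend over separation (adjusted p = 0.187). For contacts between near and far distal V genes the values were 52213 and 22673 against 12142 and 12449, and the fold was -2.09 over pro-B replicate 1 but -0.88 over pro-B replicate 2.

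Of the other contacts between V regions, middle with near distal V genes gave 20383 and 26655 scaled reads in pro-B cells against 10805 and 10994 (-1.11 ± 0.32, adjusted p = 0.0275). Middle with far distal V genes gave 6979 and 6586 against 4435 and 4111 (-0.67 ± 0.22, adjusted p = 0.0371; edgeR). These 2 sums differed little between the pro-B libraries. The proximal V genes had -0.69 with the near and -0.78 with the far distal V genes, and neither passed. With either resting B library left out, edgeR called 0 region pairs lower. At an unadjusted p under 0.05 these fits held 4 (without replicate 1) and 8 (without replicate 2).

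Among the rises, the 3′ flank with the constant region had the lowest p. It gave 1767 and 1975 scaled reads in the pro-B libraries against 7091 and 6907 in the resting B libraries, a log2 fold of 1.90 ± 0.27 (edgeR, adjusted p = 0.00318). Its 33 called pairs of 199 all rose. The resting B values lay clear of both pro-B values, and the folds over the pro-B libraries were 1.99 and 1.83. The constant region with the D-J region gave 4912 and 4630 against 10592 and 11371 (1.20 ± 0.23, adjusted p = 0.00679). The constant region with the far distal V genes gave 1612 and 2023 against 5235 and 5218 (1.52 ± 0.24, adjusted p = 0.0035). The 3′ flank with the D-J region also rose (1.36, edgeR, adjusted p = 0.00679). No other sum within the constant side passed as higher. The constant region with itself gave 0.01 (edgeR, adjusted p = 0.98), and the 3′RR gave -0.19 with the constant region and -0.09 with the D-J region. The 3′ flank gave 0.59 with itself and 0.61 with the 3′RR, and the D-J region 1.12 with itself. The 3′RR with itself fell (-2.07).

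A few region sums rested on a single primer pair. The constant region with the V-D interval (1.40) owed 62.5% of its reads to FOR_115 with REV_70, and without that pair it was 0.45 (edgeR, adjusted p = 0.148). The D-J region with the V-D interval (-1.02) owed 58.6% to FOR_103 with REV_85 and was 0.05 without it (adjusted p = 0.868). Reads within the 3′RR (-2.07) owed 81.2% to FOR_28 with REV_24 and were -0.27 without it (adjusted p = 0.437). For the 3′RR and the near distal V genes (2.72) the share of FOR_31 with REV_545 was 83.2%, and the fold was -0.37 without it (adjusted p = 0.358).

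Contacts fall off with the separation of 2 fragments, so this decay was compared. The slope of log2 reads per 10-fold separation, over tested Igh pairs more than 20 kb apart, was -2.30 and -2.16 in the pro-B libraries and -1.62 and -1.41 in the resting B libraries. The decay was therefore shallower in both resting B libraries. In the desert the slopes overlapped, at -3.14 and -4.16 in the pro-B libraries, against -3.52 and -3.33 in the resting B libraries. Exact permutation of 2 against 2 libraries cannot give a two-sided p below 0.333, so these slopes are values without a test.

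Reads over more than 500 kb made up 8.26% and 13.3% of the Igh reads of the pro-B libraries, against 12.9% and 18.0% of those of the resting B libraries. These groups overlap. Without the 10 Igh pairs with the most reads they were 10.1% and 17.3% against 14.9% and 16.3%. Of 1652 tested pairs at 2000 to 4000 kb, 78 were higher (4.72%) and 8 lower (0.48%), with a median log2 fold of 1.07. At 500 to 1000 kb 17 of 2609 were higher (0.65%) and 154 lower (5.90%), with a median of -0.42. Over all Igh pairs these shares were 2.74% and 5.16%. The share of lower pairs at 500 to 1000 kb was thus near that of the whole locus.

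**Figure D2:**
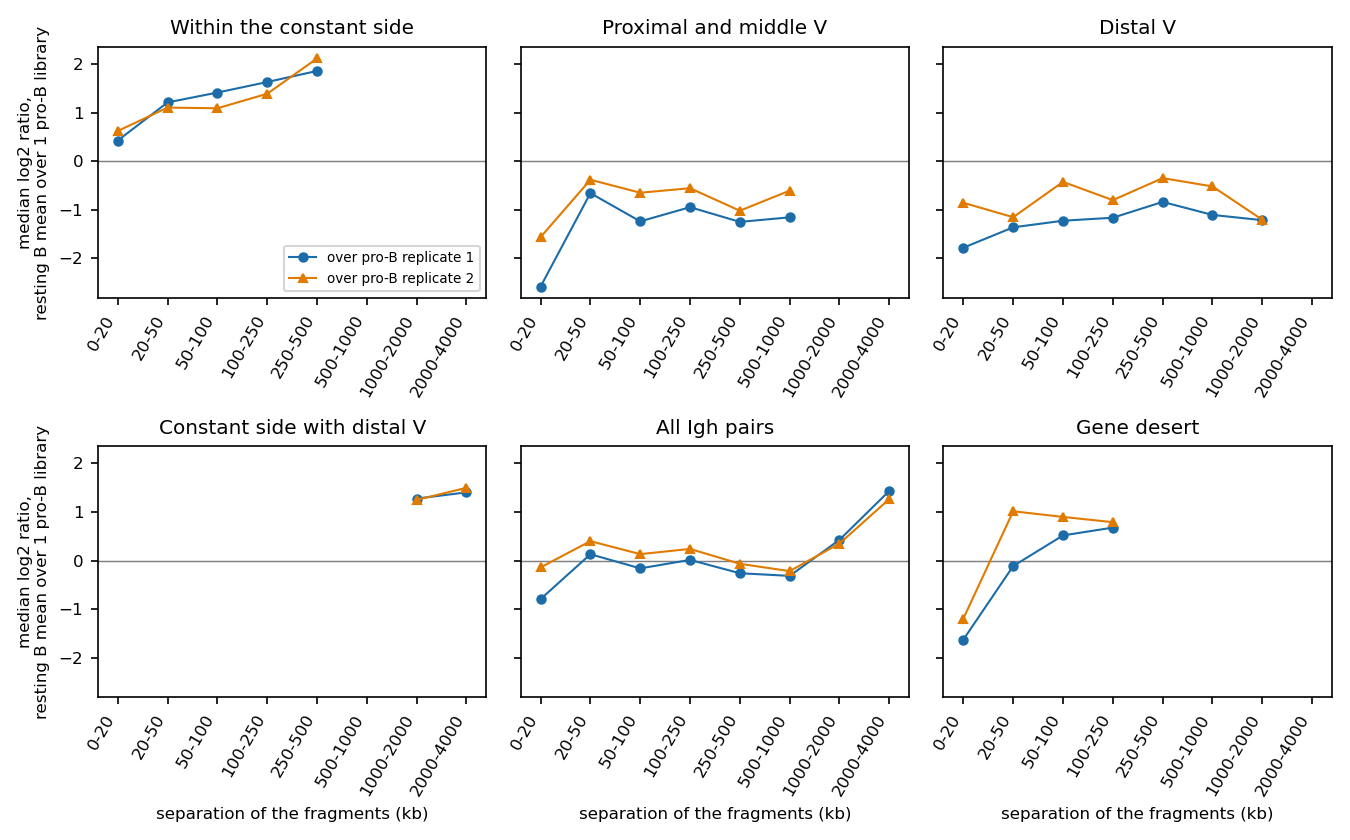
Median log2 ratio of the resting B mean over pro-B replicate 1 (circles) and over pro-B replicate 2 (triangles) against the separation of the fragments in kb, for 4 groups of Igh pairs, all Igh pairs and the gene desert. V pairs lie below 0 and constant-side pairs above 0 in every bin shown for both pro-B libraries, while desert pairs run from below 0 at 0 to 20 kb to above 0 at 50 to 250 kb.

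At matched separation the V and constant-side pairs still differed in direction. Proximal and middle V pairs had a median of -2.26 at 0 to 20 kb, where 38 of 81 were lower, and of -1.30 at 250 to 500 kb. Constant-side pairs had medians of 0.53 and 1.71 in the same bins. Desert pairs had -1.83 at 0 to 20 kb, with 7 of 44 lower, and 0.88 at 50 to 100 kb, with 8 of 57 higher. So the control locus also had a median below 0 at the shortest and above 0 at longer separations.

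The contacts of the constant side with distal V genes changed with a correction for separation. Of 2089 such pairs 85 were higher (4.07%) and 12 lower (0.57%), against 2.74% and 5.16% of all Igh pairs. Their median was 1.06. After removal of each library's trend over separation the median was -0.04, where that of all Igh pairs was -0.46. Pairs of the 5′ flank with the constant side went from 1.61 to -0.42. The trend was fitted on the same Igh pairs. Of the 1652 tested pairs at 2000 to 4000 kb, 772 joined the constant side to distal V genes. A rise of such pairs and a shallower decay therefore cannot be told apart by this correction. The medians of the constant side itself (1.11), the proximal and middle V pairs (-1.25) and the distal V pairs (-1.08) kept their signs. Of the 8 lower sums between V regions, 2 passed after this correction, proximal with proximal (-1.01, adjusted p = 0.0489) and near with far distal V (-1.31, adjusted p = 0.0241; edgeR). The other 6 had folds below 0 that no longer passed. Over pairs more than 50 kb apart 4 of the 8 passed. The sum of the constant region with the far distal V genes no longer passed (0.54, edgeR, adjusted p = 0.285), whereas the 3′ flank with the constant region did (1.98, adjusted p = 0.00014).

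Each fragment was then followed through its summed reads with Igh partners at least 250 kb away. Of 225 fragments, 31 were higher (13.8%) and 56 lower (24.9%) in resting B cells, and the groups did not overlap in 30.2% (resting B higher) and 45.3% (lower). Most of the rises lay at the constant end: 8 of 16 fragments of the 3′ flank, 11 of 25 of the constant region and 6 of 13 of the D-J region. Those 6 were REV_81 at the intronic enhancer, FOR_82 beside it, and FOR_76, REV_77, FOR_78 and FOR_80 on its Ighm side. No fragment of the 3′ flank or constant region fell. Of the 56 falls, 47 lay in V regions, namely 6 of 19 proximal, 19 of 51 middle, 11 of 43 near distal and 11 of 28 far distal fragments. With desert reads as library size 3 fragments were higher and 8 lower. Without either resting B library edgeR called 0 fragments; at an unadjusted p under 0.05 these fits held 28 higher and 35 lower (without replicate 1), and 25 and 37 (without replicate 2).

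Region medians of these folds were 1.14 for the 3′ flank, 0.83 for the constant region and 0.57 for the D-J region. Over pro-B replicate 1 the first 2 were 1.56 and 1.48 and over pro-B replicate 2 they were 0.80 and 0.40, while the D-J region had 0.80 and 0.86. The 5′ flank, at the other end, had 0.82 (1.48 over pro-B replicate 1 and 0.33 over pro-B replicate 2), with 1 fragment called higher and 2 lower. The medians were -0.36 for proximal, -0.57 for middle, -0.15 for near distal and -0.74 for far distal V fragments, and -0.67 for the 3′RR. Those of the near distal V fragments and of the V-D interval (-0.22) turned to 0.11 and 0.04 with total Igh reads as library size and to 0.05 and 0.02 with desert reads, so their direction was not settled. A few V fragments rose, among them FOR_346 in the middle V genes (1.05 ± 0.29, adjusted p = 0.0389) and FOR_419 in the near distal ones (1.73 ± 0.43, adjusted p = 0.0346; edgeR).

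**Figure D3:**
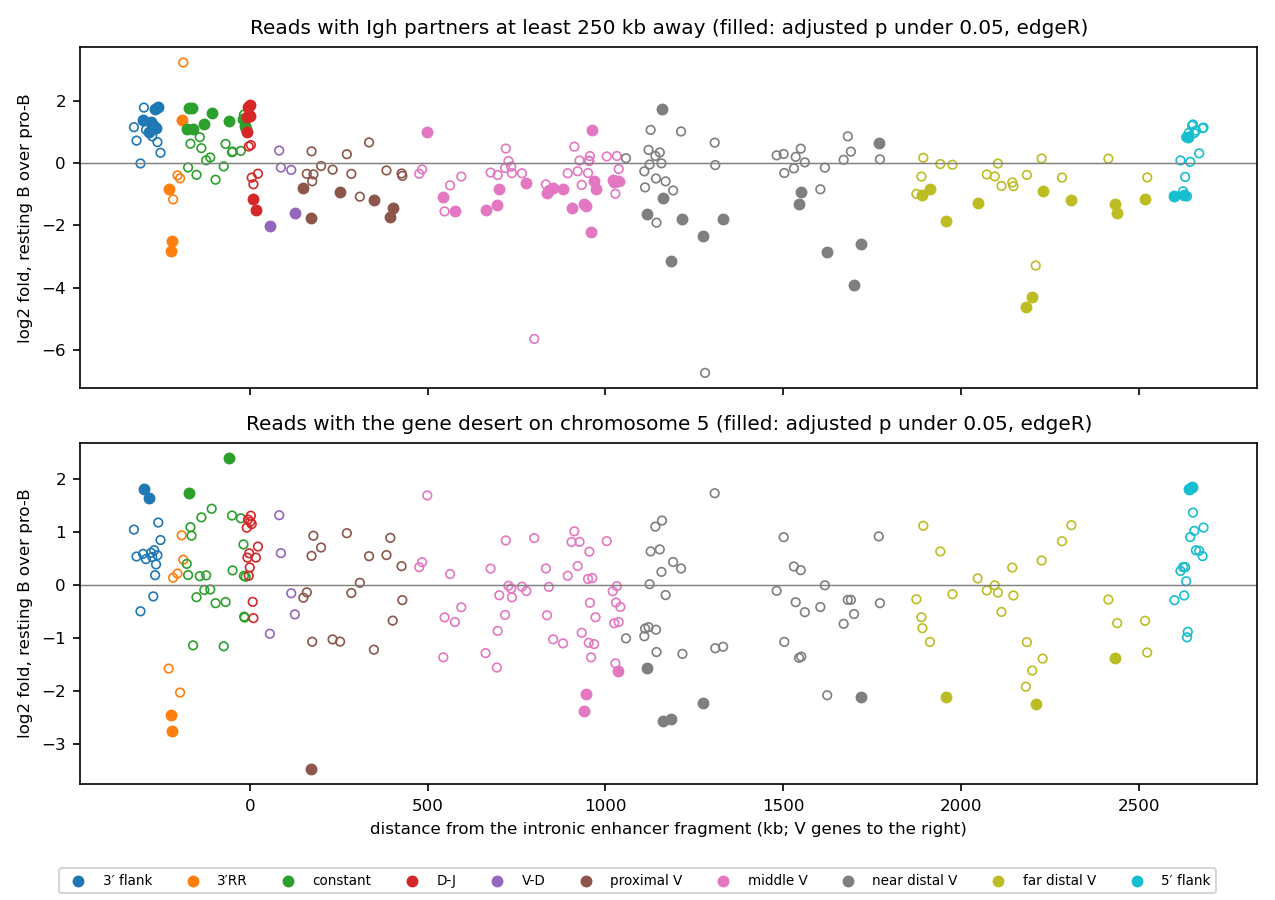
Log2 fold, resting B over pro-B cells, of each Igh fragment's reads with Igh partners at least 250 kb away (top) and with the gene desert (bottom), against distance in kb from the intronic enhancer fragment, coloured by region. Filled points passed the threshold (31 higher and 56 lower at the top, 6 and 14 at the bottom); the fragments of the 3′ flank and constant region that passed lie above 0.

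The sign of the long-range fold changed inside the D-J region, within a few kb of the intronic enhancer. On the V side 2 falls of this region passed, REV_85 and REV_90, and that of REV_90 rested on a single primer pair. REV_81 (chr12:114664824-114667095, mm9), the fragment at the textbook position of that enhancer, had 1198 and 656 long-range scaled reads in the pro-B libraries and 3054 and 3640 in the resting B libraries. Both resting B values lay above both pro-B values, for a log2 fold of 1.85 ± 0.34 (SE, n = 2 per group; edgeR, adjusted p = 0.0149). Of its 111 tested partners 20 were higher and 0 lower, with a median of 1.73 that was 1.49 over pro-B replicate 1 and 2.55 over pro-B replicate 2. The constant region held 9 of the 20 rises, among 12 tested partners with a median of 2.52, and the 3′ flank 2 of 8 (median 2.67). Among V partners 0 of 9 proximal, 1 of 25 middle, 2 of 21 near distal and 1 of 14 far distal passed, with medians of 1.35, 1.44, 1.47 and 2.01.

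The fragments on the constant side of the enhancer rose with it. FOR_76 (chr12:114656273-114658750) rose by 1.47 ± 0.21, REV_77 by 1.00 ± 0.19, FOR_78 (chr12:114659959-114662158) by 1.79 ± 0.17 and FOR_80 by 1.54 ± 0.19 (edgeR). FOR_78 had 209 and 252 scaled reads in pro-B cells against 796 and 797 in resting B cells. REV_79, between them, had a fold of 0.53 ± 0.28 and did not pass.

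On the V side, FOR_82 (chr12:114667096-114667886), which adjoins the enhancer fragment, rose by 1.52 ± 0.24. The next fragment, REV_83, was at 0.57 ± 0.40 and FOR_84 (chr12:114670120-114672758) at -0.47 ± 0.17, and neither passed. REV_85 (chr12:114672759-114675715), 8.28 kb from the enhancer fragment between midpoints, had 571 and 719 scaled reads in pro-B cells against 266 and 316 in resting B cells. It fell by 1.15 on the log2 scale, with an SE of 0.20 (edgeR, adjusted p = 0.0122), with a median of -1.20 over its 109 partners. Of these 0 were higher and 5 lower, a share near the 5.16% of all Igh pairs.

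Farther toward the V genes, REV_90 (chr12:114679904-114686567) had 1399 and 2933 long-range scaled reads in pro-B cells against 806 and 734 in the resting B libraries, a log2 fold of -1.49 ± 0.38 (adjusted p = 0.0346, edgeR). This fall rested on the pair with FOR_399, which held 72.3% of the reads; without it the fold of the mean scaled reads was 0.42. The median over its 111 partner pairs was 0.29, 3 of them higher and 2 lower. FOR_86 (-0.68 ± 0.29) and FOR_91 (-0.34 ± 0.21) did not pass. REV_94 (chr12:114722112-114723013), the fragment nearest the textbook position of IGCR1, gave 483 and 492 scaled reads in pro-B cells against 121 and 122 in resting B cells. Its fold of -2.01 ± 0.16 (adjusted p = 0.00347) was the same over both pro-B libraries, at -1.99 and -2.02, and 18 of its 106 partners were lower and 0 higher.

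**Figure D4:**
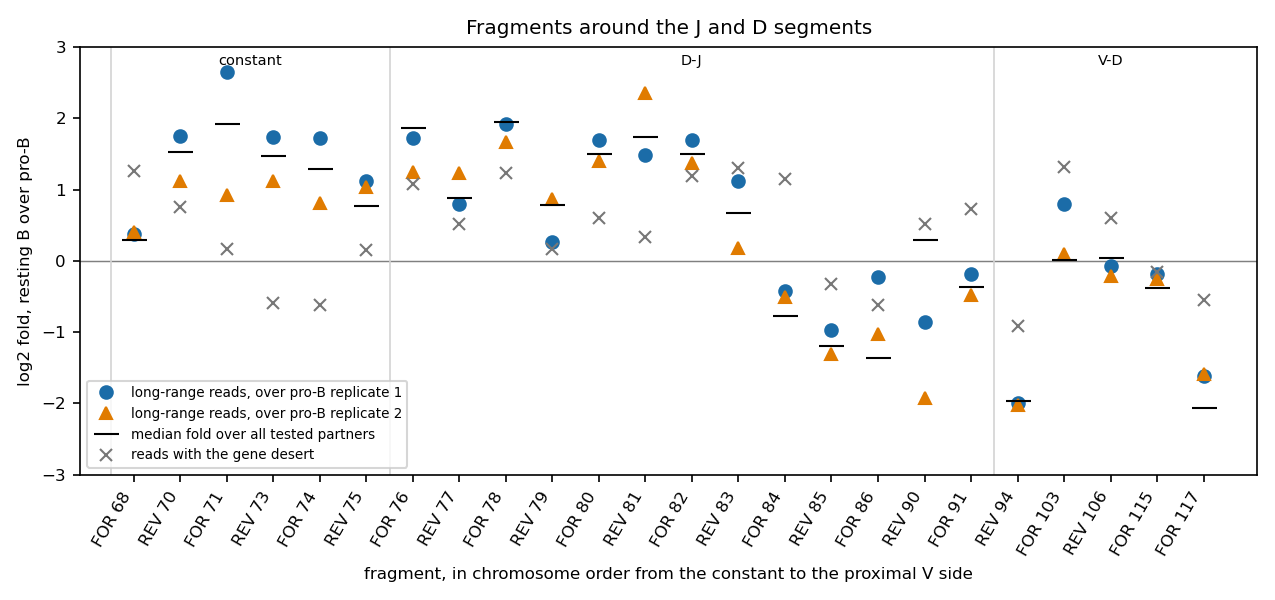
Log2 fold, resting B over pro-B cells, for fragments from the end of the constant region to the V-D interval in chromosome order: long-range reads over pro-B replicate 1 (circles) and replicate 2 (triangles), the median over all tested partners (bars) and reads with the gene desert (crosses). Long-range folds lie above 0 from FOR_76 to REV_83 and below 0 from FOR_84 to REV_94, over either pro-B library; that of REV_90 rests on its pair with FOR_399.

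Reads with the gene desert do not involve a second Igh fragment, so they were used as a measure of how often a fragment was recovered. In them no fragment of the D-J region or V-D interval passed in either direction. FOR_78 had 1.23, FOR_84 1.14 ± 0.41, REV_85 -0.32 ± 0.37, FOR_86 -0.63, REV_90 0.51 ± 0.38 and REV_94 -0.92 ± 0.47. At SEs of this size a missing call does not show equal recovery. The enhancer fragment had 0.33 ± 0.47, with 240 and 4367 raw desert reads in the pro-B libraries against 2420 and 3614. In these raw reads the pro-B libraries lay on both sides of the resting B libraries. Fewer copies of a fragment and fewer contacts per copy cannot be told apart in these sums.

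The V-D interval was not uniform. FOR_117 (chr12:114791568-114794187), at its V end, gave 231 and 227 long-range scaled reads in pro-B cells against 77.1 and 74.2 in resting B cells and fell by 1.60 on the log2 scale, with an SE of 0.15 (edgeR, adjusted p = 0.00366). FOR_103, REV_106 and FOR_115 between it and REV_94 had folds of 0.40, -0.15 and -0.22 and did not pass. The primer pair of the 2 falling fragments, FOR_117 with REV_94, 70.3 kb apart, had 311 and 310 reads in the pro-B libraries and 8 and 2 in the resting B libraries, a fold of -6.12 ± 0.88 (edgeR, adjusted p = 0.0214). FOR_84 with REV_94, from the D-J region to the IGCR1 fragment, had 1627 and 2799 reads against 168 and 123 (-4.05 ± 0.50, adjusted p = 0.0195).

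Adjoining fragments were compared as well. The enhancer fragment with its neighbour FOR_82 had 251013 and 210785 reads in the pro-B libraries and 1510088 and 1644784 in the resting B libraries, a log2 fold of 2.58 ± 0.58 (edgeR, adjusted p = 0.0427). The adjoining fragments REV_85 and FOR_86, which lie on the V side, had 513473 and 591910 reads against 279113 and 247958, and their fold of -1.23 ± 0.50 did not pass (adjusted p = 0.155). FOR_103 with REV_85, which reaches from the D-J region into the V-D interval, fell from 18138 and 22227 to 5510 and 4705 reads (-2.14 ± 0.45, adjusted p = 0.0364).

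Within the 3′RR, the enhancer cluster that acts on the constant genes in mature B cells, the 2 ends differed. The 3 fragments at its 3′ end fell: FOR_23 (chr12:114441222-114447060) had 540 and 500 long-range scaled reads in pro-B cells against 80.1 and 67.0 in resting B cells (-2.82 ± 0.21, adjusted p = 0.00347, edgeR). REV_24, next to it, had -2.50 ± 0.40, and REV_22, the outermost, -0.85 ± 0.22 (adjusted p = 0.0108 and 0.0371). REV_29 (chr12:114474053-114474922), toward the constant genes, rose from 197 and 331 to 666 and 708 scaled reads (1.38 ± 0.28, adjusted p = 0.0214). FOR_31, the last fragment before the constant genes, had a fold of 3.22 ± 1.09 that did not pass, and 94.6% of its long-range reads came from the pair with REV_545. Without that pair the fold of the mean scaled reads was 0.80. Of its 112 partners 8 were higher and 0 lower, with a median of 0.91.

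Reads with the gene desert were also lower at the 3′ end of the 3′RR. Reads of FOR_23 with the desert gave a log2 fold of -2.46 ± 0.48 and those of REV_24 -2.75 ± 0.60 (edgeR, adjusted p = 0.00531 and 0.00915), while REV_22 had -1.58 ± 0.54 (adjusted p = 0.0695). Raw desert reads of FOR_23 were 123 and 645 in the pro-B libraries against 103 and 116, although pro-B replicate 1 had far fewer reads between the loci in all. REV_29 had 0.93 ± 0.43 and did not pass. The part of recovery in the falls of this end was not tested.

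REV_35 (chr12:114493852-114496828), a constant-region fragment near the 3′RR, rose with 21 of 111 partners and fell with 0, by a median of 2.04. Its long-range scaled reads were 596 and 718 in pro-B cells against 2138 and 2291 in resting B cells (1.75 ± 0.18, adjusted p = 0.00387). Its desert reads were higher too (1.72 ± 0.50, adjusted p = 0.0382; edgeR). Partners in the far distal V genes had a median of 3.22 and those in the 3′ flank 3.27. FOR_671 in the far distal V genes (chr12:116768031-116772149) with REV_35 went from 408 and 343 reads to 3807 and 3923 (3.17 ± 0.42, adjusted p = 0.0213). FOR_147 in the proximal V genes with REV_35 went from 812 and 642 to 4904 and 4865 reads (2.55 ± 0.42, adjusted p = 0.0272).

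Over all 224 fragments with both measures, the long-range fold and the desert fold correlated with Pearson's r of 0.628 and Spearman's rho of 0.659. This is a description across fragments of the same libraries, which share primers and depth. Reads with the desert were higher for 6 fragments (2.68%) and lower for 14 (6.25%). Of the 56 fragments with lower long-range reads, 51 had a desert fold below 0, as had 118 of all 224, and 13 were called lower with the desert. Of the 31 with higher long-range reads, 25 had a desert fold above 0 and 3 were called higher.

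Of the 14 fragments lower in desert reads, 12 lay in V regions and 2 in the 3′RR. The V regions hold 141 of the 225 fragments. REV_428 in the near distal V genes (chr12:115848051-115855284) had a desert fold of -2.52 ± 0.50 and a long-range fold of -3.13 ± 0.52, and REV_450 in the same region had -2.22 ± 0.44 and -2.34 ± 0.26. REV_335 in the middle V genes had -2.37 ± 0.46 and -1.33 ± 0.22. Other V fragments fell in long-range reads without a call in desert reads, such as REV_345 in the middle V genes (long-range -2.20 ± 0.14, desert -1.37 ± 0.76) and FOR_702 in the far distal ones (-4.30 ± 0.39 and -1.61 ± 0.64). For FOR_702 the pair with REV_552 held 79.4% of the long-range reads, and the fold of the mean scaled reads was -1.88 without it. REV_55 in the constant region (chr12:114601397-114612029) rose in both, by 1.34 ± 0.23 and 2.38 ± 0.45. With desert reads as library size or with the 4 libraries alone, edgeR called 0 fragments for desert reads in either direction. At an unadjusted p under 0.05 the first held 0 and 0, and the second 28 higher and 36 lower.

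**Figure D5:**
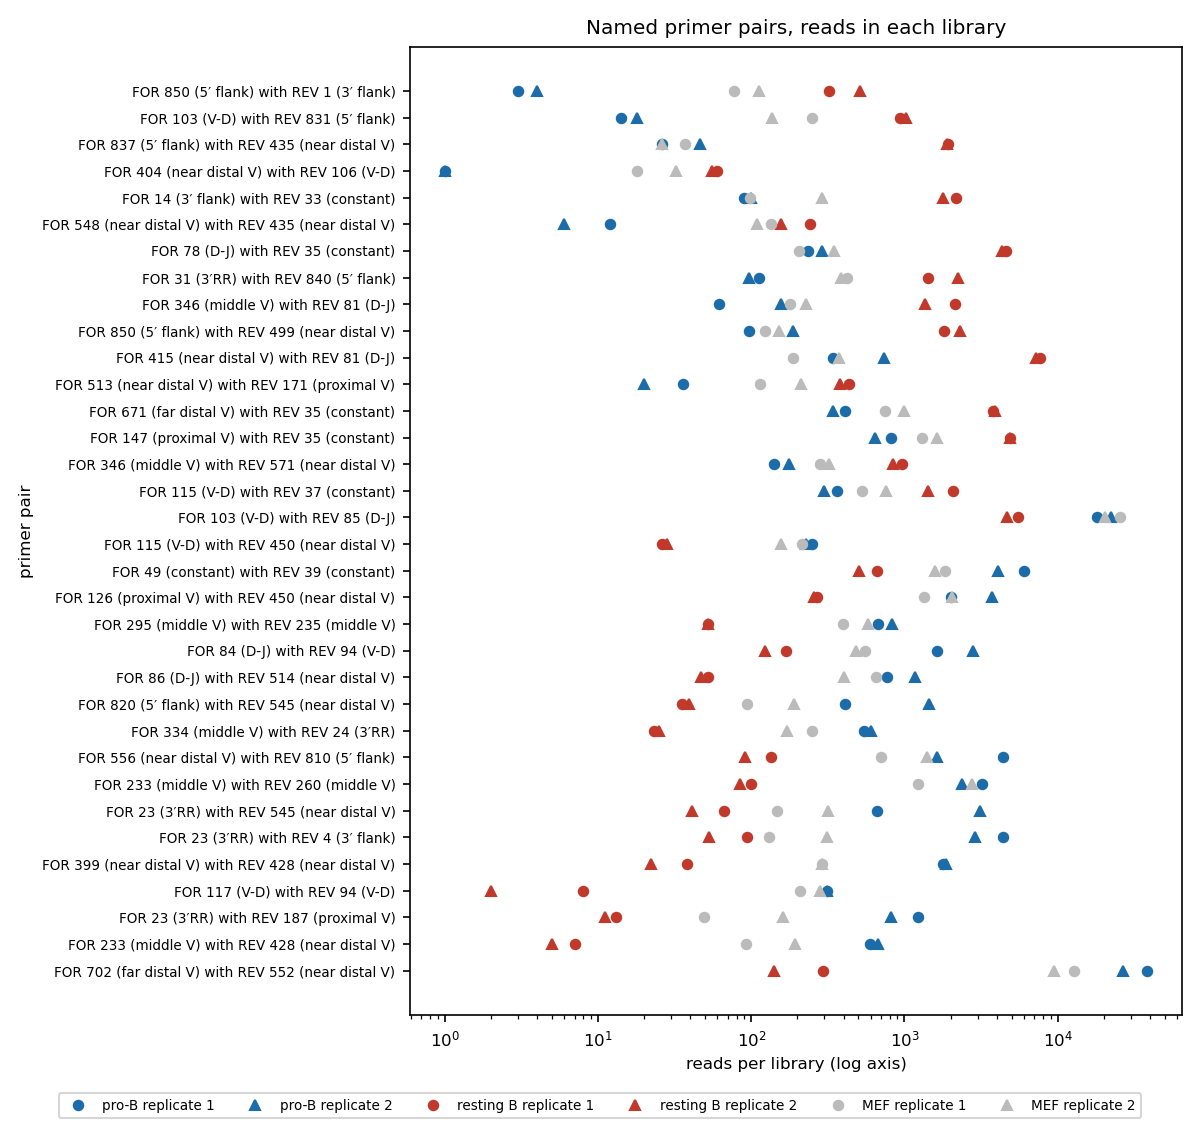
Reads in each library on a log axis for the 34 named primer pairs, at least 50 kb apart, with pro-B cells in blue, resting B cells in red and MEF in grey (circles replicate 1, triangles replicate 2). The choice of pairs fixed that both resting B points lie on the same side of both pro-B points; values run from 1 read in each pro-B library against 60 and 55 (FOR_404 with REV_106) to 38314 and 26864 against 293 and 140 (FOR_702 with REV_552).

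Single primer pairs with the enhancer fragment rose as well. The enhancer fragment with FOR_346 in the middle V genes (chr12:115628291-115630212), 963 kb away, had 61 and 157 reads in the pro-B libraries and 2137 and 1361 in the resting B libraries, a log2 fold of 3.91 ± 0.54 (edgeR, adjusted p = 0.0214). The same V fragment with REV_571 in the near distal V genes rose from 140 and 175 to 956 and 840 reads (2.36 ± 0.46, adjusted p = 0.0345), one of few rises between V fragments. REV_345, which adjoins FOR_346 in the sequence of fragments, had 20 lower and 0 higher partners. Of all Igh pairs 5.16% were lower and 2.74% higher. In long-range reads FOR_346 and REV_345 moved in opposite directions, by 1.05 and -2.20. Their desert folds differed as well: that of FOR_346 was 0.13 and that of REV_345, given above, was negative.

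Falls of V pairs were found at short and at long distances. FOR_399 with REV_428 in the near distal V genes, 73.9 kb apart, fell from 1780 and 1858 reads to 38 and 22 (-6.10 ± 0.57, adjusted p = 0.0189). FOR_295 with REV_235 in the middle V genes, 215 kb apart, had 672 and 829 against 52 and 52 (-4.00 ± 0.48, adjusted p = 0.0195). FOR_126 in the proximal V genes with REV_450, 1114 kb apart, had 2005 and 3719 against 269 and 255 (-3.56 ± 0.40, adjusted p = 0.0189, all by edgeR). The desert folds were -0.82 for FOR_399 and -2.52 for REV_428, and -0.12 for FOR_295 and 0.20 for REV_235. FOR_126 had -0.14 and REV_450 -2.22. The part of recovery in these falls was not tested.

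On the constant side the rises reached over the 3′RR. FOR_14 in the 3′ flank (chr12:114394005-114395286) with REV_33 at the 3′ end of the constant region, 94.2 kb apart, rose from 90 and 100 reads to 2180 and 1797, a log2 fold of 4.22 ± 0.51 (adjusted p = 0.0195). FOR_23 of the 3′RR with REV_4 of the 3′ flank, 85.5 kb apart, went the other way, from 4370 and 2884 to 93 and 53 reads (-5.87 ± 0.61, adjusted p = 0.0189). Within the constant region FOR_49 with REV_39 fell from 6036 and 4104 to 662 and 502 reads (-3.35 ± 0.53, adjusted p = 0.0245; edgeR). Rises on the constant side were therefore frequent but had exceptions.

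The D-J region held a fall with a distal V fragment as well. FOR_86 with REV_514 in the near distal V genes (chr12:116216128-116218064), 1541 kb apart, fell from 765 and 1164 reads to 52 and 47 (-4.41 ± 0.63, adjusted p = 0.0214). FOR_86 lies 10.3 kb to the V side of the enhancer fragment. FOR_78, on its other side, had 21 near distal V partners with a median of 2.30, of which 2 were higher and 0 lower.

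The 5′ flank, beyond the last V genes, joined the constant side more often in resting B cells before distance was taken into account: 39 of 517 tested pairs were higher and 0 lower. With V genes 17 of 1100 were higher and 8 lower, against 2.74% and 5.16% of all Igh pairs. FOR_850 (chr12:117345114-117346619) with REV_499 in the near distal V genes, 1178 kb apart, rose from 97 and 186 reads to 1805 and 2289 (3.75 ± 0.48, edgeR, adjusted p = 0.0198). FOR_556 in the near distal V genes with REV_810 at the edge of the flank, 881 kb apart, fell from 4381 and 1637 to 135 and 91 reads (-5.01 ± 0.71, adjusted p = 0.0214).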

How the data were processed

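5C libraries were grouped by their titles. The files as deposited give unnormalized counts of valid reads for each primer pair. Their headers state a read length of 42 and record no correction of the counts. Listed pairs have at least 1 read, and unlisted pairs were set to 0. Novoalign and mm9 are named in the submitters' processing notes (no version of Novoalign is given in the sources used here).

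A pair was tested, with edgeR 4.0.16 (R 4.3.3), if 2 or more libraries held 10 or more of its reads. The quasi-likelihood fit held all 6 libraries, cell type as the only term and TMM over tested cis pairs. Benjamini-Hochberg adjustment ran over Igh and desert pairs separately (threshold 0.05). Region sums and fragment sums (partners at least 250 kb away) used the same scaling, and reads with the desert their own TMM. The SE was taken as the absolute log2 fold over the square root of F. Code was tested on simulated counts. There the pair test recovered 5% of 100 planted 4-fold changes and 48% of 100 planted 16-fold changes, with 1 false call. Most 4-fold changes of single pairs were thus missed. The long-range fragment test recovered 19 of 20 fragments changed 4-fold, with 2 false calls.

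Regions, landmarks and lists were chosen with earlier results of these data known. Named pairs were, in each of 10 classes, up to 2 per direction in order of p, past the threshold, at least 50 kb apart, with groups not overlapping and no fragment reused. Named fragments were up to 5 per direction in each fragment test plus the landmarks; other fragments were named for their place beside these or after their values were seen.

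Alternatives were DESeq2 1.42.0, total Igh or desert reads as library size, no filter, only the 4 libraries, the replicate block, each library left out, a lowess distance correction (span 0.3), partners at least 100 kb away and, for regions, mean logs with limma 3.58.1. Region sums without their largest pair or over pairs more than 50 kb apart, and fragment sums without their largest partner, were added after seeing the data. Replicate numbers did not pair the samples.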

Additional observations from a re-analysis of the deposited data

How the results depend on the processing

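Counts are given as higher and lower. DESeq2 called 1303 and 1601 Igh pairs, 53 and 38 desert pairs, 22 region pairs higher, 54 fragments higher in long-range reads, and 20 and 29 fragments in desert reads. Total Igh reads as library size gave 400 lower Igh pairs, 41 and 24 desert pairs, 6 lower region pairs, 24 lower fragments in long-range reads and 0 higher in desert reads (7 at an unadjusted p under 0.05, edgeR). Desert reads as library size gave 349 lower Igh pairs, 40 and 26 desert pairs, 5 and 5 region pairs, 3 and 8 fragments in long-range reads, and 0 and 0 in desert reads. Without the filter 4 and 4 desert pairs passed. The 4 libraries alone gave 0 and 0 Igh pairs, 5 lower desert pairs, 6 lower region pairs, 14 and 33 fragments in long-range reads and 0 and 0 in desert reads. Distance correction left 11 higher desert pairs and 6 lower region pairs, and turned the 3′ with the 5′ flank to -0.192 and the D-J region with the 5′ flank to -0.079. Mean logs (limma) gave 27 and 19 region pairs and 0.033 for D-J with V-D. Without its largest pair D-J with V-D was 0.055 and the 3′RR with near distal V -0.37. Without its largest partner the long-range reads of REV_90 went to 0.419.

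Leaving out 1 library at a time gave 0 to 3340 higher and 0 to 2214 lower Igh pairs, 0 to 72 and 0 to 42 desert pairs, 5 to 22 and 0 to 16 region pairs, 0 to 62 and 0 to 75 fragments in long-range reads, and 0 to 27 and 0 to 36 in desert reads; a lone library was assumed to vary like the other groups. The cause of these changes was not tested. Replicate numbers are shared by the groups, but deviations of same-numbered libraries correlated at only 0.05 over Igh pairs. With the replicate block 67 Igh pairs were higher and 204 lower. Of the 34 named primer pairs 27 passed with the block, 34 with DESeq2 and 0 with the 4 libraries alone; of 23 region pairs 21, 23 and 14 passed.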

Other observations

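Pairs that stood above a background model of separation and primer strength (loops, called over 50 kb apart where the standardised residual reached 2 in each replicate) numbered 56 in pro-B cells and 93 in resting B cells. Both cell types shared 34, or 60.7% of the pro-B and 36.6% of the resting B loops. Within the constant side there were 9 in pro-B and 18 in resting B cells, of which 4 were shared, and among distal V genes 21 and 28, of which 14 were shared. These classes hold 961 and 1260 of the 12656 Igh pairs, counted at all separations. Distal V genes thus held loops in both cell types. The model was fitted within each library, so these counts cannot be set against the sums of contacts compared between libraries. At this threshold single libraries held 73 and 82 loops in pro-B cells against 112 and 126 in resting B cells. With a residual of at least 3 the counts were 39 and 55, with 26 shared, and single libraries held 52 and 54 against 63 and 66. Among distal V genes the order then turned, with 17 loops in pro-B and 13 in resting B cells. The counts had no test.

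Some contacts were seen in 1 cell type alone. In 41 Igh pairs both pro-B libraries had 0 reads and both resting B libraries at least 10. Of these, 13 joined the constant side to proximal or middle V genes, a class of 2170 of the 12656 Igh pairs. Another 12 joined the 5′ flank to V genes, a class of 1198. In 21 pairs the reverse held, and 14 of these joined proximal or middle to distal V genes, a class of 2486. A further 705 pairs had 0 reads in pro-B replicate 2 alone and at least 10 in the other 3 libraries, against 39 for pro-B replicate 1. The absences in a single library thus outnumbered those shared by both.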
